A study of Rattus norvegicus with 9 samples.

Results

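The genes described here encode the machinery of the endoplasmic reticulum (ER) that takes in, folds and ships secreted proteins, together with the stress response that watches over it. The 40 genes were chosen by name: 10 ER lumen chaperones and co-chaperones, 4 protein disulfide isomerases, 3 stress sensors, 5 stress transcription factors, 3 genes driven by ATF4 and CHOP, 3 genes of ER-associated degradation, 5 genes of the translocon and its associated TRAP complex, 4 genes of the COPII coat and TANGO1, and 3 cargo or retrieval receptors. The genes were chosen with earlier results of these data known. All 40 were among the 17602 genes of the table and all 40 were above 0 TPM in at least 3 libraries. None was therefore lost to the filter on low values.

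RNA was sequenced from knees of wild-type male Lewis rats aged 10 to 12 weeks, with 3 libraries in each of 3 groups. The intact group was synovium, the lining tissue of the joint, collected around the medial meniscus without surgery. The sham group was synovium collected 1 week after the joint capsule had been opened and closed. The pMx group was the tissue that had regrown 1 week after partial medial meniscectomy (pMx), in which the front portion of the medial meniscus is cut out, and the synovium around it was trimmed away. The pMx and sham groups therefore differed in the surgery and in the tissue taken, and these cannot be told apart. The labels call the libraries biological replicates but do not say which animals or knees they came from. Values are TPM, a measure of transcript abundance scaled for transcript length and to the same total of 1000000 in each library, so levels of different genes can be compared, but the number of reads behind a value is unknown.

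Secreted and membrane proteins enter the ER through the Sec61 channel while they are being made. Chaperones such as BiP and the lectins calnexin and calreticulin hold the new chains, disulfide isomerases form and reshuffle their cysteine bonds, and COPII vesicles carry folded cargo towards the Golgi. When unfolded protein builds up, the sensors IRE1, PERK and ATF6 signal through XBP1, ATF4 and the cut form of ATF6, which is called the unfolded protein response. Fibroblasts and cartilage cells that lay down collagen depend on this route, because procollagen is made in large amounts and is too long for an ordinary vesicle.

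Intact replicate 3 stood apart from the other libraries: its 7 skeletal muscle markers summed to 37920 TPM, against 52.4 to 2619 TPM in the other 8 libraries, and 35 of the 40 genes had their lowest intact value in it. Counts are therefore given with and without intact replicate 3. Sham replicate 3 was the lowest sham library for 29 of the 40 genes. The synovial lining marker Prg4 (lubricin) was present in every library, at 2100 to 2986 TPM in the intact, 1245 to 1451 TPM in the sham and 1084 to 1738 TPM in the pMx group. The other lining markers differed in how far they were lower in pMx. Clic5 had 239 ± 76.5 TPM in sham and 13.1 ± 4.20 TPM in pMx, and Htra4 had 755 ± 179 and 82.3 ± 23.1 TPM (SD, n = 3 each). Cd55 had 177 ± 37.2 and 86.3 ± 12.1 TPM (SD, n = 3 each). Has1 had 45.0 ± 8.0 and 32.1 ± 5.05 TPM, and its sham and pMx libraries overlapped (SD, n = 3 each).

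The secretory genes were higher in regenerating tissue than in sham synovium. In the pMx versus sham comparison, 27 of the 40 genes rose, 2 fell and 11 did not pass the test (limma on log2(TPM + 1), adjusted p below 0.05). Over all 16512 genes tested, 17.7% rose and 18.9% fell. The median log2 fold change was 0.59 over the 40 genes and -0.01 over all genes. In 33 genes every pMx library was above every sham library and in 4 genes every pMx library was below, where 27.0% and 29.0% of all genes did so. Differentially expressed genes (DEGs), which also had an absolute log2 fold change above 1, numbered 5, all higher in pMx: Sec61a1, Ssr1, Kdelr2, Kdelr3 and Lman1. Higher DEGs made up 3.36% of all genes and lower DEGs 4.85%. No gene of the 40 was a lower DEG by limma, with 0 also at an unadjusted p below 0.05. Without intact replicate 3, which enters only through the shared estimate of the spread, 31 genes rose, 2 fell and 6 were higher DEGs. Without sham replicate 3, Sdf2l1, Edem1 and Ssr3 no longer passed.

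The transcripts of the 40 genes together had a summed TPM of 4348 ± 433 in intact, 4890 ± 315 in sham and 7890 ± 68.9 in pMx tissue (SD, n = 3 each). These sums were 0.435%, 0.489% and 0.789% of the total. The pMx sums of 7950, 7904 and 7814 TPM all lay above the highest sham sum of 5102 TPM. The chaperones had the largest sum of the 9 roles, at 1654 ± 201, 1800 ± 124 and 2872 ± 31.5 TPM in intact, sham and pMx tissue (SD, n = 3 each).

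**Figure D1:**
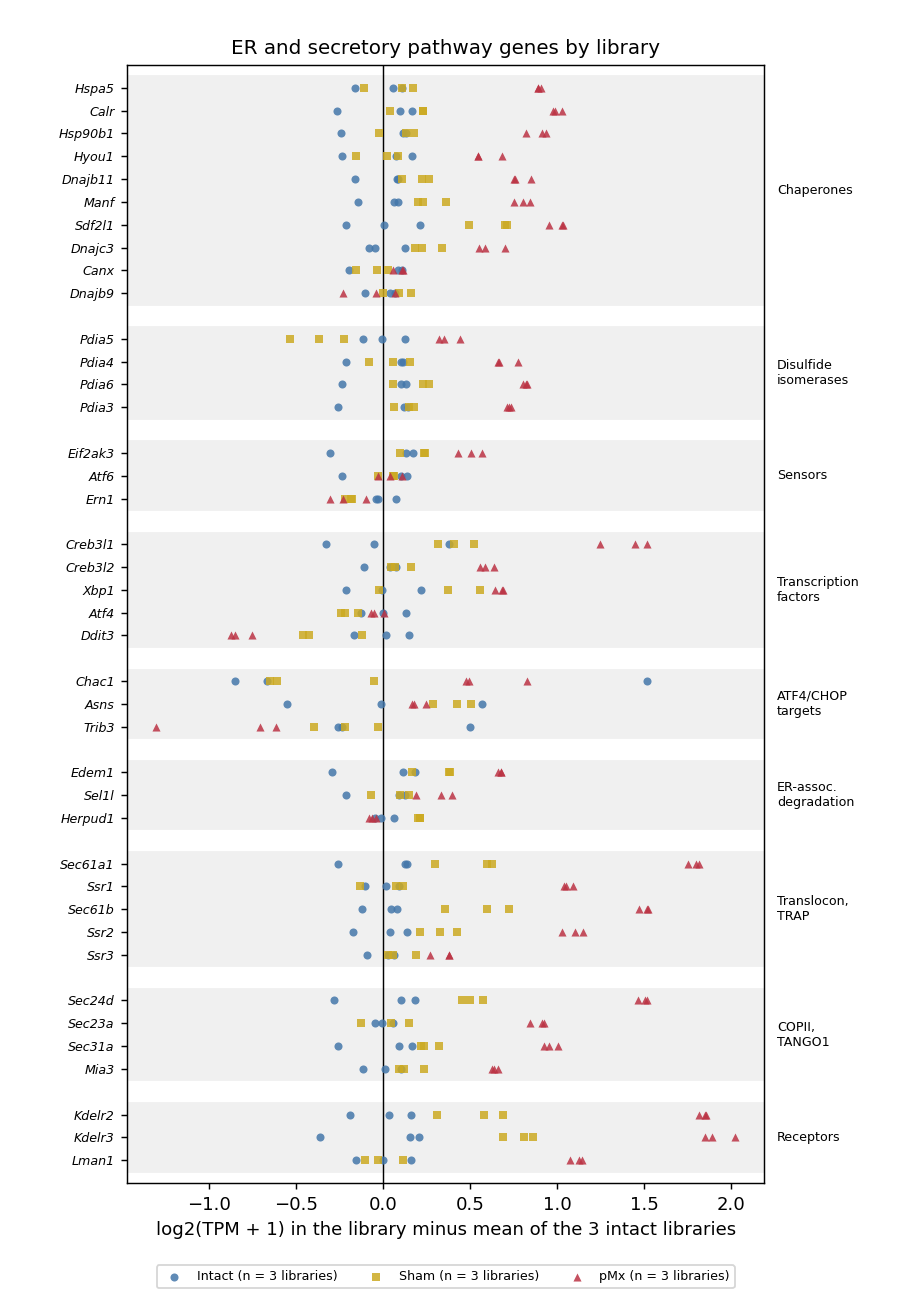
Level of each of the 40 genes in each of the 9 libraries, as log2(TPM + 1) minus the mean of the 3 intact libraries. Genes are grouped by role. In the lower rows of translocon, COPII and receptor genes the pMx triangles stand to the right of all sham squares. For the sensor Atf6 all groups are mixed. For the sensor Ern1 sham and pMx are mixed, and the intact circles lie to the right of both.

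Cell type markers moved between the same groups. The 8 fibroblast markers summed to 10020 to 14710 TPM in the intact, 22780 to 26990 TPM in the sham and 55240 to 59720 TPM in the pMx libraries. Of the 8, 5 rose in pMx versus sham (Col1a1, Col1a2, Col3a1, Lum and Pdgfrb), 2 fell (Dcn and Fap) and Pdgfra did not pass. Col1a1 (type I collagen) had 15670 ± 1036 TPM in pMx against 4501 ± 592 TPM in sham (SD, n = 3 each). Dcn had 2441 ± 232 TPM in pMx against 4683 ± 443 TPM in sham, and Fap 111 ± 10.1 against 228 ± 40.4 TPM (SD, n = 3 each). All 6 adipocyte markers fell, from sums of 4341 to 4690 TPM in sham to 325.7 to 500.6 TPM in pMx. All 6 cycling cell markers rose, from sums of 37.3 to 62.7 TPM in sham to 159 to 177 TPM in pMx. The 5 lining markers summed to 2129 to 2891 TPM in sham and 1256 to 1985 TPM in pMx, where Prg4 made up most of the sum; Clic5, Htra4 and Cd55 fell, and Prg4 and Has1 did not pass. The 8 macrophage markers summed to 1672 to 1764 TPM in sham and 1176 to 1602 TPM in pMx, but they moved in different directions. Cd68 rose, from 150.4 ± 14.68 TPM in sham to 208.7 ± 19.05 TPM in pMx (SD, n = 3 each). Cd163 and C1qb fell, and the others did not pass, among them C1qa, the most abundant of the 8. The sums of the 6 endothelial markers overlapped, at 622.5 to 660.2 TPM in sham and 523.7 to 661.4 TPM in pMx, but single markers differed. Vwf and Emcn fell (log2 fold changes -0.69 and -0.87), and Pecam1, Cdh5, Kdr and Tie1 did not pass. For Cdh5 and Kdr, every pMx library was above every sham library. The 6 cartilage and fibrocartilage markers summed to 500.3 to 601.4 TPM in sham and 976.3 to 1182 TPM in pMx. Of the 6, Acan (aggrecan, 21.9 ± 13.4 TPM in sham and 208 ± 27.0 TPM in pMx; SD, n = 3 each), Sox9 and Hapln1 rose, Cnmd fell and was at 0 in every pMx library, and Comp and Col2a1 did not pass. The 7 plasma and B cell markers in the table summed to 10.7 to 13.0 TPM in sham and 4.82 to 5.86 TPM in pMx. Of these, Cd79a, Cd79b and Irf4 fell, Prdm1 rose (log2 fold change 0.40, adjusted p = 0.0466), and Mzb1, which marks plasma cells, was between 0 and 0.33 TPM in all libraries. In bulk tissue, more cells of a type and more RNA per cell cannot be told apart, and the part of these markers in the ER gene changes was not tested. RNA integrity, as the study lists it for each library, was also lowest in intact, higher in sham and highest in pMx without overlap. Its part in the results was not tested, and it cannot be told apart from the groups.

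The receptors that bring cargo out of the ER, or escaped residents back, had the highest median log2 fold change of the 9 roles, 1.13, and all 3 rose. Kdelr2, a receptor that returns ER residents carrying a KDEL tail from the Golgi, had 88.36, 80.91 and 69.07 TPM in the intact, 128.24, 118.53 and 98.07 TPM in the sham and 288.20, 280.60 and 287.28 TPM in the pMx libraries. The lowest pMx library was more than double the highest sham library. Its log2 fold change was 1.31 (SE 0.11, adjusted p = 8.27e-05). The related receptor Kdelr3 had 96.55, 93.22 and 64.77 TPM in the intact, 152.74, 147.19 and 135.36 TPM in the sham and 343.16, 312.60 and 303.64 TPM in the pMx libraries. The groups of Kdelr3 did not overlap in any comparison, and its log2 fold change over sham was 1.13 (SE 0.14, adjusted p = 0.000443). Lman1, a lectin that carries glycoproteins out of the ER, had 49.17, 55.07 and 44.15 TPM in the intact and 53.31, 48.20 and 45.67 TPM in the sham libraries, which overlapped. The pMx libraries stood well apart at 109.82, 108.76 and 104.95 TPM, with a log2 fold change over sham of 1.12 (SE 0.09, adjusted p = 5.53e-05).

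All 5 translocon and TRAP genes rose in pMx versus sham, with a median log2 fold change of 0.94. Sec61a1, the pore of the channel, had 87.07, 86.17 and 65.80 TPM in the intact, 119.88, 122.57 and 97.22 TPM in the sham and 276.95, 268.46 and 280.84 TPM in the pMx libraries. The 3 groups did not overlap, and the log2 fold change over sham was 1.28 (SE 0.12, adjusted p = 0.000134). Sec61b, a small subunit of the same channel, had 242.12, 236.61 and 210.89 TPM in the intact, 348.05, 379.51 and 294.05 TPM in the sham and 658.15, 662.25 and 637.71 TPM in the pMx libraries. The log2 fold change was 0.94 (SE 0.10, adjusted p = 0.000175), just short of the DEG threshold. The TRAP complex assists the insertion of some signal peptides. Its subunit Ssr1 had 73.22, 77.15 and 67.16 TPM in the intact, 78.41, 76.37 and 66.03 TPM in the sham and 151.27, 149.73 and 155.35 TPM in the pMx libraries. Intact and sham overlapped for Ssr1, and pMx lay above both by a log2 fold change of 1.04 over sham (SE 0.08, adjusted p = 4.63e-05). Ssr2 had 278.50, 260.24 and 225.19 TPM in the intact, 318.86, 340.45 and 293.82 TPM in the sham and 562.99, 517.71 and 545.89 TPM in the pMx libraries, a log2 fold change over sham of 0.77. The subunits were not equal: Ssr3 had a log2 fold change of 0.25 (95% interval 0.10 to 0.40), and its call was lost in 4 of the 9 fits that left out a library.

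The 4 genes of vesicle budding from the ER rose as well, with a median log2 fold change of 0.79. Sec24d, an inner coat subunit that selects cargo, had 44.75, 42.18 and 32.12 TPM in the intact, 56.00, 59.09 and 54.07 TPM in the sham and 114.34, 113.20 and 110.12 TPM in the pMx libraries. Every pMx value was above 110 TPM and every sham value below 60 TPM, and the log2 fold change was 0.99 (SE 0.11, adjusted p = 0.000267). Sec23a, its partner in the inner coat, had 51.30 to 62.25 TPM over the intact and sham libraries together and 101.40 to 107.19 TPM in pMx (log2 fold change 0.87, SE 0.07). The outer coat gene Sec31a had a log2 fold change of 0.70. Mia3 encodes TANGO1, which links procollagen to the growing coat, and had 0.49.

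Of the 10 chaperones, 8 rose, none fell and 2 did not pass, with a median log2 fold change of 0.56 and no DEG by limma (0 past the fold threshold also at an unadjusted p below 0.05). Hspa5, which encodes BiP, the main Hsp70 of the ER and the classic readout of ER stress, had 274.62, 284.84 and 236.33 TPM in the intact, 297.83, 284.97 and 244.46 TPM in the sham and 491.49, 496.39 and 489.92 TPM in the pMx libraries. Intact and sham were mixed, and the pMx libraries lay close together above them (log2 fold change over sham 0.84, SE 0.09, adjusted p = 0.000244). Calr (calreticulin) was the most abundant gene of the 40, with 604.10, 633.45 and 469.43 TPM in the intact, 660.37, 662.52 and 579.17 TPM in the sham and 1109.83, 1151.76 and 1121.66 TPM in the pMx libraries. The log2 fold change was 0.83 and that of Hsp90b1, the Hsp90 of the ER, was 0.80. Calnexin (Canx) is the membrane-bound relative of calreticulin. It had 224.34 to 255.15 TPM in sham and 259.56 to 270.32 TPM in pMx and did not pass the test (log2 fold change 0.15, 95% interval -0.05 to 0.35).

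The other chaperones that rose were Hyou1, a nucleotide exchange factor for BiP (0.61), the BiP co-chaperones Dnajb11 (0.59) and Dnajc3 (0.37), Manf (0.54) and Sdf2l1 (0.37), where each value is the log2 fold change of pMx versus sham. Sdf2l1 had 29.61, 25.52 and 21.87 TPM in the intact, 42.43, 41.97 and 36.21 TPM in the sham and 53.06, 53.19 and 50.31 TPM in the pMx libraries. It stepped up in both operated groups, and its call in pMx versus sham was lost in 4 of the 9 fits that left out a library. Dnajb9, a co-chaperone that depends on IRE1 and XBP1 for its induction, had 23.30 to 26.09 TPM in sham and 19.70 to 24.43 TPM in pMx (log2 fold change -0.15, 95% interval -0.36 to 0.06).

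All 4 disulfide isomerases rose, by log2 fold changes between 0.60 for Pdia3 and 0.75 for Pdia5. Pdia5 had 45.32, 49.66 and 41.85 TPM in the intact, 31.13, 38.85 and 35.00 TPM in the sham and 62.15, 57.12 and 58.20 TPM in the pMx libraries. It was lowest in sham, with no overlap between any of the groups (pMx versus sham SE 0.09, adjusted p = 0.000442). Pdia3, which pairs with calnexin and calreticulin, was the most abundant isomerase of the 4, at 440.5 ± 17.9 TPM in sham and 666 ± 5.94 TPM in pMx (SD, n = 3 each). Pdia4 and Pdia6 had log2 fold changes of 0.66 and 0.63.

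**Figure D2:**
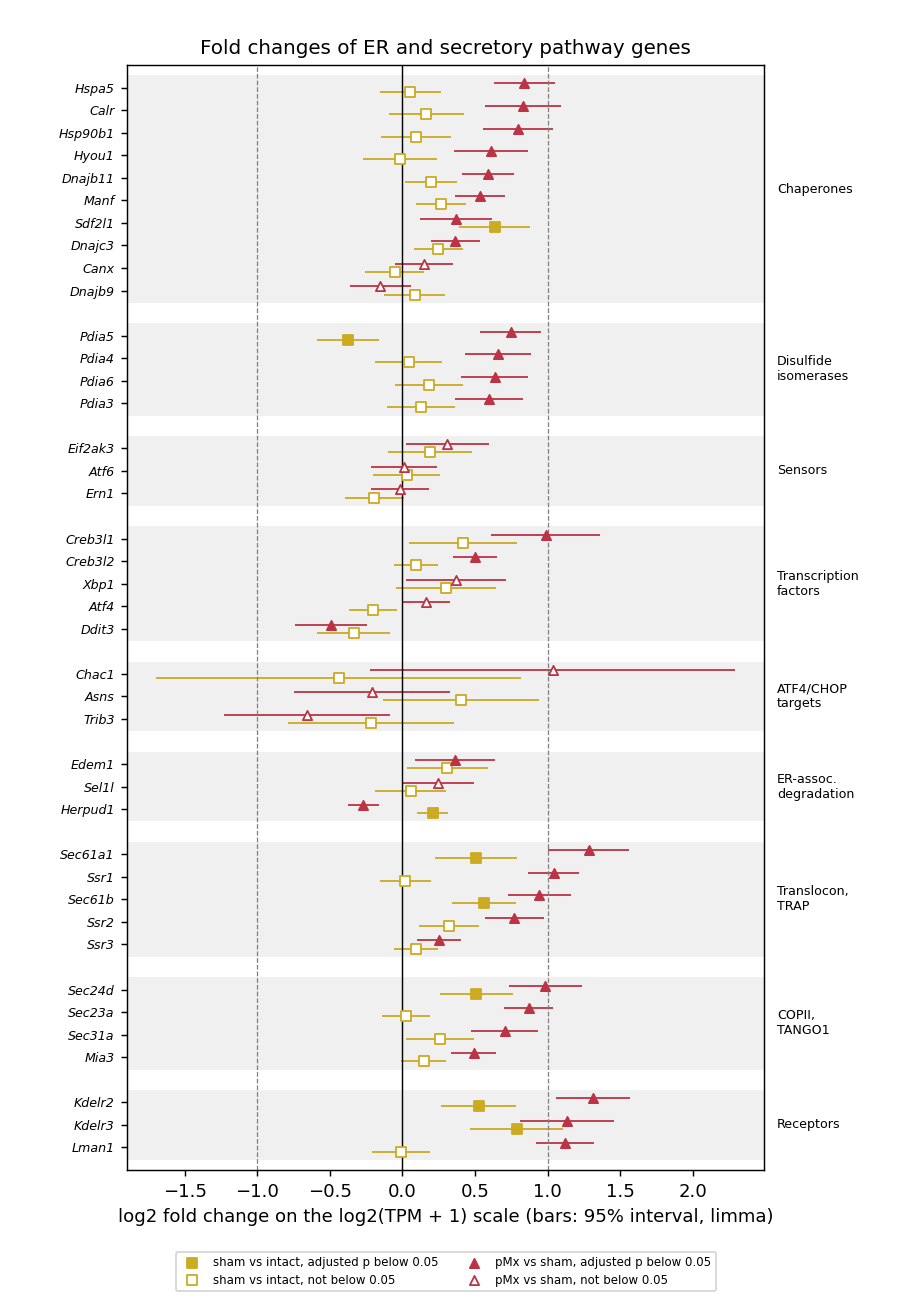
Log2 fold change of each gene with its 95% interval from limma, for pMx versus sham (triangles) and sham versus intact (squares); filled symbols passed adjusted p below 0.05 and dashed lines mark the DEG threshold of 1. The receptors and Sec61a1 lie furthest right in pMx versus sham, and the sensors Ern1 and Atf6 lie near 0.

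None of the 3 stress sensors passed the test in pMx versus sham by limma, and 1 of them, Eif2ak3, was below an unadjusted p of 0.05. Ern1, which encodes IRE1, had 6.96, 7.62 and 7.01 TPM in the intact, 6.23, 6.03 and 6.21 TPM in the sham and 5.98, 6.65 and 5.63 TPM in the pMx libraries. The sham and pMx values were mixed, and the log2 fold change of -0.02 had a 95% interval of -0.22 to 0.19. Atf6 had 30.27, 31.04 and 23.73 TPM in the intact, 29.46, 29.27 and 27.59 TPM in the sham and 27.57, 30.46 and 28.99 TPM in the pMx libraries. All groups overlapped (log2 fold change 0.01, 95% interval -0.22 to 0.24). Eif2ak3, which encodes PERK, had 17.05, 16.56 and 11.96 TPM in the intact, 17.86, 17.95 and 16.10 TPM in the sham and 22.73, 21.77 and 20.54 TPM in the pMx libraries. The pMx libraries were above all sham libraries, but the log2 fold change of 0.31 did not pass (adjusted p = 0.0889), and it passed without intact replicate 3 (adjusted p = 0.00628).

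The transcription factors moved in different directions. Creb3l1 (OASIS) is held in the ER membrane until it is cut, and is known for driving collagen production in bone. It had 33.73, 24.74 and 20.30 TPM in the intact, 32.28, 34.41 and 37.42 TPM in the sham and 71.86, 75.50 and 62.24 TPM in the pMx libraries. All pMx libraries exceeded 60 TPM and no sham library reached 40 TPM (log2 fold change 0.99, SE 0.16, adjusted p = 0.00192). Its relative Creb3l2, known for driving Sec23a in cartilage cells, had 30.86 to 33.48 TPM in sham and 44.32 to 46.94 TPM in pMx (log2 fold change 0.50, adjusted p = 0.000602).

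Xbp1 had 123.97, 105.93 and 91.82 TPM in the intact, 156.98, 137.85 and 104.71 TPM in the sham and 166.52, 171.87 and 171.48 TPM in the pMx libraries. The sham libraries spread widely, and every pMx library was above every sham library. The log2 fold change of 0.37 did not pass (95% interval 0.02 to 0.71, adjusted p = 0.0896). It passed without sham replicate 1 (adjusted p = 0.0401) and with median-of-ratios scaling. Gene-level TPM does not show the spliced form of Xbp1 that makes the active protein. Atf4, whose output is set mainly at translation, had 330.32, 360.18 and 395.82 TPM in the intact, 304.95, 326.92 and 309.46 TPM in the sham and 344.08, 362.93 and 348.21 TPM in the pMx libraries. The pMx values were inside the intact range, and the log2 fold change over sham of 0.16 did not pass (adjusted p = 0.110); it passed without intact replicate 3 (adjusted p = 0.0305). Ddit3, which encodes CHOP, the factor tied to cell death under lasting ER stress, had 58.62, 64.43 and 51.57 TPM in the intact, 41.87, 42.80 and 53.18 TPM in the sham and 31.10, 33.97 and 31.62 TPM in the pMx libraries. It was lowest in pMx, where no library reached the lowest sham value, and fell by 0.49 on the log2 scale against sham (SE 0.11, adjusted p = 0.00830).

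Of the 3 target genes of ATF4 and CHOP, none passed in pMx versus sham by limma, and Trib3 was the single gene below an unadjusted p of 0.05. Trib3, a pseudokinase that curbs ATF4 and CHOP, had 5.39, 2.77 and 2.83 TPM in the intact, 3.42, 2.43 and 2.88 TPM in the sham and 1.77, 1.95 and 0.83 TPM in the pMx libraries (log2 fold change -0.66, adjusted p = 0.0703). The pMx libraries were lowest, at levels where 1 added to each TPM shrinks the fold change. Chac1, which breaks down glutathione, had 0.62, 0.43 and 6.38 TPM in the intact, 0.69, 1.48 and 0.64 TPM in the sham and 2.58, 3.57 and 2.63 TPM in the pMx libraries. Intact replicate 3, the library with muscle RNA, was the highest of all, and the log2 fold change of pMx over sham, 1.04, did not pass (adjusted p = 0.179). Without that library the same fold change passed (adjusted p = 0.00231). Asns (asparagine synthetase) had 13.60 to 15.99 TPM in sham and 12.41 to 13.18 TPM in pMx (log2 fold change -0.21, 95% interval -0.75 to 0.33). Fitted on the 6 libraries of pMx and sham alone, limma called 31 genes higher and 3 lower, adding Eif2ak3, Atf4, Chac1 and Sel1l to those that rose and Trib3 to those that fell.

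**Figure D3:**
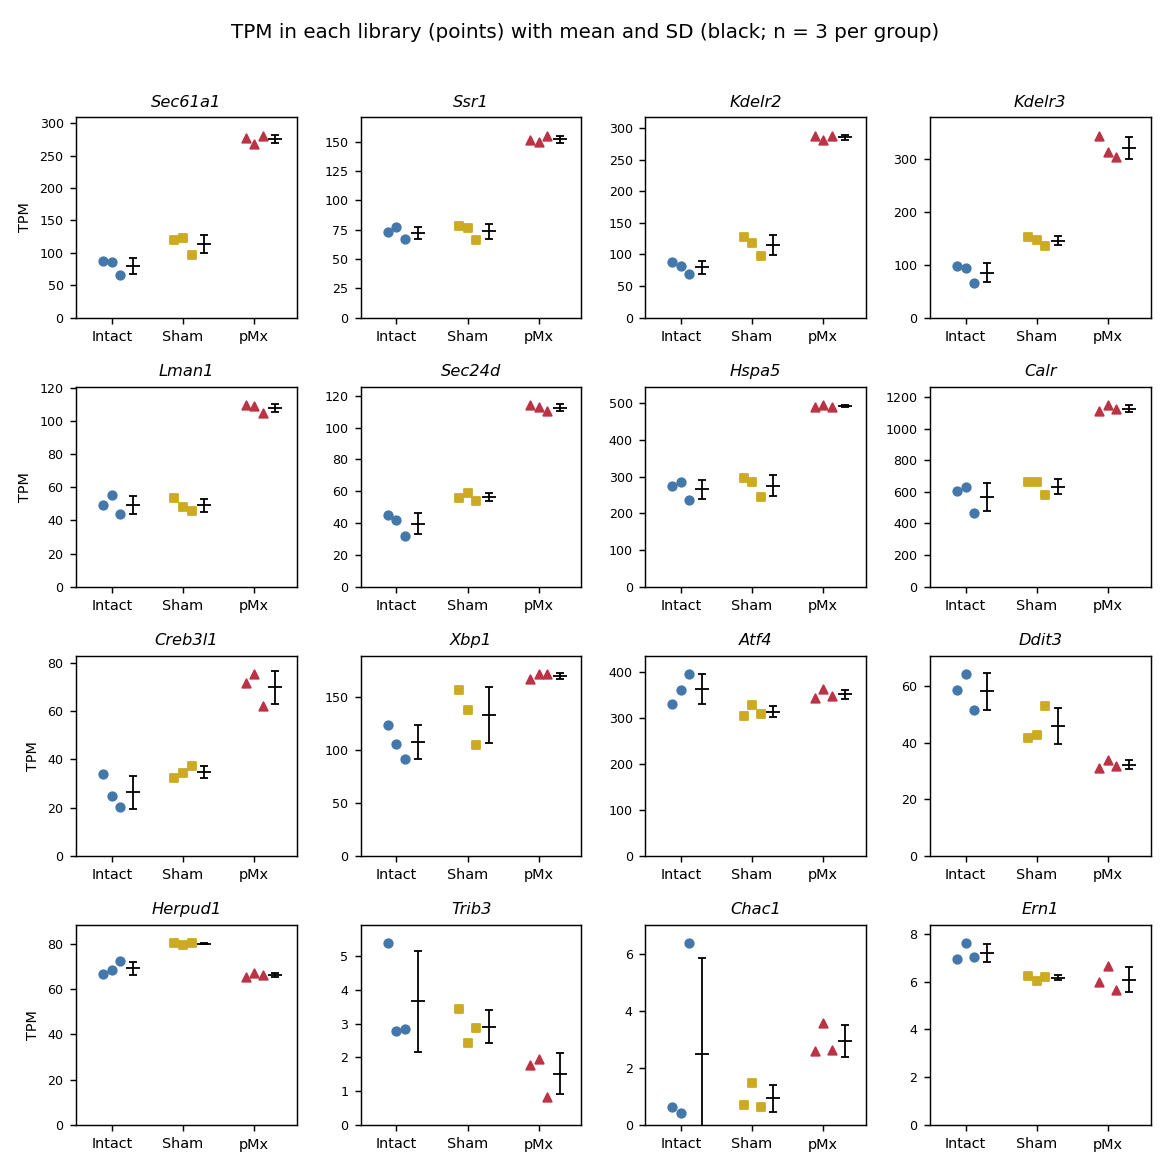
TPM of 16 of the genes in each of the 9 libraries, with the mean and SD of each group in black (n = 3); the SD bar of Chac1 in the intact group is cut at 0. Sec61a1, Kdelr2 and Kdelr3 step up from intact to sham to pMx, Ssr1, Lman1 and Hspa5 overlap between intact and sham and are higher in pMx, and Ddit3 is lowest in pMx.

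ER-associated degradation, which pulls misfolded proteins back to the cytosol, was split. Herpud1, a membrane scaffold of the degradation complex and a classic stress-induced gene, had 66.72, 68.39 and 72.26 TPM in the intact, 80.32, 79.61 and 80.13 TPM in the sham and 65.35, 67.13 and 66.12 TPM in the pMx libraries. The sham libraries were above all others, and Herpud1 fell by 0.27 on the log2 scale in pMx versus sham (SE 0.05, adjusted p = 0.00239). Edem1, which hands misfolded glycoproteins to degradation, had the largest fold change of these 3 genes. It had 41.50, 39.43 and 29.52 TPM in the intact, 47.62, 47.93 and 41.01 TPM in the sham and 58.93, 58.79 and 58.12 TPM in the pMx libraries. Its pMx values were nearly equal and above all sham values, but the rise (log2 fold change 0.36, adjusted p = 0.0465) was close to the threshold and was lost in 7 of the 9 fits that left out a library. Sel1l, the adaptor of the HRD1 ubiquitin ligase, had a log2 fold change of 0.25 (adjusted p = 0.108).

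The promoters of these genes hold the best known DNA elements of the response, which are shown here so that the fold changes can be read beside them. RefSeq promoter windows of the GRCr8 assembly, from 250 bases before to 50 bases after the start of the gene, were at hand for 32 of the 40 genes. They were searched on both strands for the ER stress element (ERSE, CCAAT and CCACG with 9 bases between them, known to bind NF-Y and ATF6), for ERSE-II (ATTGG and CCACG with 1 base between them), for the core of the unfolded protein response element (UPRE, TGACGTG) and for the CARE site of ATF4 (TGATG and AAT with 1 base between them). ERSE was found in 6 of the 32 genes and in 22 of all 33469 windows (0.0657%). ERSE-II was found in 3 genes and in 17 windows (0.0508%), and the UPRE core in 5 genes and in 605 windows (1.81%). No window of the 32 genes held the CARE letters searched for, which 366 windows (1.09%) held. CARE sites with another spelling, or outside these windows, were not searched for, so this does not show that the genes lack ATF4 sites. ERSE was first described in human promoters of several of these same genes. A match of letters is a description and not a shown binding site. The 9 genes with an ERSE or ERSE-II are given below with the element in capitals, 5′ to 3′ along the gene.
Hspa5, ERSE, chr3:38452958-38453006, plus strand, element from -43 to -25: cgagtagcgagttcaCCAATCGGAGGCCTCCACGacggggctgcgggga
Hsp90b1, ERSE, chr7:23012436-23012484, minus strand, element from -176 to -158: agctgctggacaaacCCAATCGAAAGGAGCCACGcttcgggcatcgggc
Calr, ERSE on the opposite strand, chr19:40213120-40213168, plus strand, element from -232 to -214: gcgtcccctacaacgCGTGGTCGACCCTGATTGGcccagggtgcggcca
Dnajc3, ERSE, chr15:102432519-102432567, plus strand, element from -133 to -115: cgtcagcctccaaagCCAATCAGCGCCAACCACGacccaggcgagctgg
Canx, ERSE, chr10:35158054-35158102, minus strand, element from -230 to -212: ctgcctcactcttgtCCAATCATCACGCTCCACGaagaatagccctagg
Xbp1, ERSE, chr14:84604543-84604591, plus strand, element from -65 to -47: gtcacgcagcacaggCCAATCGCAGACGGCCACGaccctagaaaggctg
Hyou1, ERSE-II on the opposite strand, chr8:53602779-53602819, plus strand, element from -88 to -78: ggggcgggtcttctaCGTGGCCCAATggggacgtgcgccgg
Dnajb11, ERSE-II, chr11:91672800-91672825, minus strand, element from -10 to 1: atgtcccaggcggcgATTGGCCCACG
Herpud1, ERSE-II, chr19:10614806-10614846, minus strand, element from -124 to -114: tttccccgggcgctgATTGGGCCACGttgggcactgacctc

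Positions are counted from the gene start, with 1 as its first base, and belong to GRCr8, not to the assembly behind the TPM values. Hsp90b1 held another ERSE and Hyou1 another ERSE-II, the latter overlapping a UPRE core. Of the 9 genes, Hspa5, Hsp90b1, Calr, Dnajc3, Hyou1 and Dnajb11 rose in pMx versus sham, Herpud1 fell, and Canx and Xbp1 did not pass. Their median log2 fold change was 0.59, and that of the 23 genes with neither element was 0.50, of which 15 rose and 1 fell. The 5 genes with a UPRE core (Hspa5, Hyou1, Sec23a, Mia3 and Kdelr3) rose, where 27 of all 40 genes rose. Among the genes with the largest fold changes, Kdelr2 and Sec61a1 had no window in the reference, and the windows of Ssr1 and Lman1 held none of the 4 motifs.

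In the sham versus intact comparison, which asks what opening the joint did, 7 of the 40 genes rose, 1 fell and 32 did not pass. Over all genes tested, 6.73% rose and 5.97% fell. The median log2 fold change was 0.14 over the 40 genes and -0.02 over all genes, and no gene was a DEG by limma in either direction (0 past the fold threshold also at an unadjusted p below 0.05), where 1.42% of all genes were higher and 0.533% lower DEGs. The genes that rose were Kdelr3 (log2 fold change 0.79, adjusted p = 0.0125), Sdf2l1 (0.63, adjusted p = 0.0109), Sec61b (0.56, adjusted p = 0.0112), Kdelr2 (0.53, adjusted p = 0.0225), Sec24d (0.51, adjusted p = 0.0231), Sec61a1 (0.51, adjusted p = 0.0332) and Herpud1 (0.21, adjusted p = 0.0260). Pdia5 fell by 0.38 on the log2 scale (adjusted p = 0.0346). Without intact replicate 3, 7 genes rose and 2 fell. These calls rest on the spread estimated over all 9 libraries: fitted on the 6 intact and sham libraries alone, limma called no gene of the 40 in either direction, with 10 higher and 2 lower at an unadjusted p below 0.05. Without sham replicate 1 or sham replicate 2, 2 genes rose, and without intact replicate 2, 4 rose.

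In the pMx versus intact comparison, which shares its libraries with both others, 30 genes rose, 2 fell and 8 did not pass. Over all genes tested, 23.4% rose and 27.1% fell. There were 10 higher DEGs, where 6.4% of all genes were higher DEGs: Kdelr3 (log2 fold change 1.92), Kdelr2 (1.84), Sec61a1 (1.79), Sec61b (1.50), Sec24d (1.49), Creb3l1 (1.40), Lman1 (1.11), Ssr2 (1.09), Ssr1 (1.06) and Sdf2l1 (1.01). No gene was a lower DEG by limma, with 0 past the fold threshold also at an unadjusted p below 0.05, where 7.89% of all genes were lower DEGs. Ddit3 fell by 0.83 (adjusted p = 0.000315) and Trib3 by 0.88 (adjusted p = 0.0179) on the log2 scale. Without intact replicate 3 the counts were again 30 and 2, with 10 higher DEGs, but the genes were not all the same. Chac1 then rose (log2 fold change 1.36, adjusted p = 0.000755 by limma) and Sel1l no longer passed. Sdf2l1 was then short of the DEG threshold, at 0.90. Eif2ak3 (log2 fold change 0.50, adjusted p = 0.0101), Xbp1 (0.67, adjusted p = 0.00585) and Sel1l (0.30, adjusted p = 0.0420) rose in this comparison.

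Other genes of the same route were listed by their roles, also with earlier results of these data known. Of the 142 listed, 139 were tested. In pMx versus sham, 78 rose (56.1%), 10 fell (7.19%) and 51 did not pass, with a median log2 fold change of 0.31, where 17.7% of all genes rose and 18.9% fell. Of the 28 other chaperones and oxidoreductases, 14 rose and 2 fell. Txndc5, a disulfide isomerase, had 175.48, 179.80 and 153.69 TPM in sham and 385.71, 387.41 and 356.11 TPM in pMx (log2 fold change 1.15, adjusted p = 0.000164). P4hb, an isomerase that is also a subunit of collagen prolyl hydroxylase, had 554.34 to 643.62 TPM in sham and 1143.15 to 1154.13 TPM in pMx (log2 fold change 0.92). No sham library of either gene reached a pMx library. In contrast, Ero1b, an oxidase that recharges disulfide isomerases, dropped from 24.37, 31.87 and 26.69 TPM in the intact and 15.46, 11.56 and 15.74 TPM in the sham to 4.92, 5.48 and 4.54 TPM in the pMx libraries (log2 fold change -1.34, adjusted p = 0.000200). Tmx3 fell by 0.39.

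**Figure D4:**
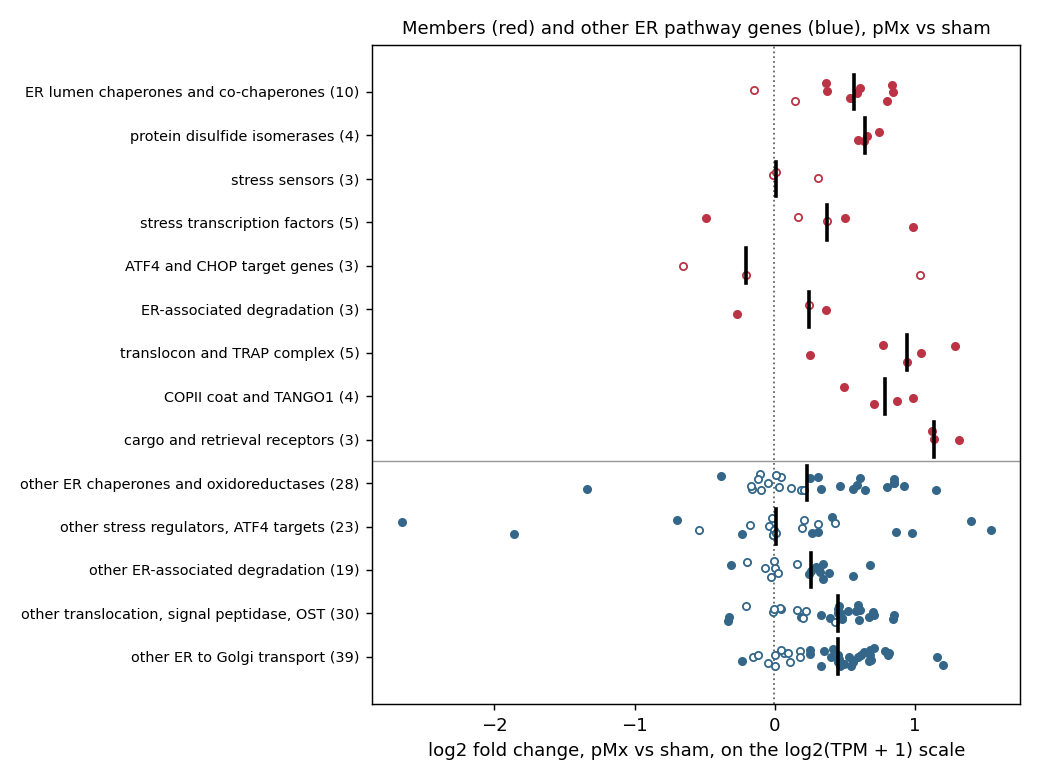
Log2 fold change of pMx versus sham for every gene tested in each role list, with the 40 genes in red and the other pathway genes in blue; filled points passed adjusted p below 0.05, black bars are list medians and the dotted line is the median of all genes. The receptor, translocon and COPII lists lie furthest right, and the list of other stress regulators and ATF4 targets is centred near 0 with the widest spread.

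The 23 other stress regulators and ATF4 target genes tested had a median log2 fold change of 0.01, with 7 that rose (30.4%) and 4 that fell (17.4%), the latter close to the 18.9% of all genes. The amino acid and folate genes in this list went both ways. Mthfd2, a mitochondrial folate enzyme, had 7.34, 8.66 and 6.35 TPM in sham and 24.96, 21.39 and 24.12 TPM in pMx (log2 fold change 1.54, adjusted p = 0.000162). Slc7a5, a transporter of large neutral amino acids, had 6.42 to 8.72 TPM in sham and 21.73 to 23.24 TPM in pMx (log2 fold change 1.40). Phgdh, the first enzyme of serine synthesis, went the other way, from 37.14, 38.76 and 29.98 TPM in sham to 4.53, 3.65 and 6.20 TPM in pMx (log2 fold change -2.66, adjusted p = 0.00232). The stress factor Atf5 had 209.72, 209.36 and 276.67 TPM in sham and 59.59, 57.99 and 70.60 TPM in pMx (log2 fold change -1.86, adjusted p = 5.00e-05). Adipocyte markers fell between the same groups, and their part in these decreases was not tested.

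Of the 19 other degradation genes, 11 rose and 1 fell, with the ubiquitin ligase Syvn1 (HRD1, log2 fold change 0.68) and Selenos (0.56) rising most and Rnf5 falling by 0.31. Of the 30 other genes for translocation, signal peptide removal and N-glycan transfer, 19 rose and 2 fell. Ostc (0.85) and Stt3a (0.84), both of the oligosaccharyltransferase, had the largest increases, while Magt1 fell by 0.33 and Srp14 by 0.33. Of the 39 other genes of ER to Golgi transport, 27 rose and 1 fell. Surf4, a cargo receptor, had 184.04, 182.01 and 150.70 TPM in sham and 406.65, 379.43 and 400.08 TPM in pMx (log2 fold change 1.20, adjusted p = 6.71e-05). Sec16b, which organises ER exit sites, had 5.92 to 7.03 TPM in sham and 14.51 to 16.59 TPM in pMx (log2 fold change 1.16), and the tether subunit Trappc3 fell by 0.24. In sham versus intact, 12 of the 139 genes rose (8.63%) and 4 fell (2.88%), where 6.73% and 5.97% of all genes did.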

How the data were processed

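Oligo-dT selected mRNA was sequenced at BGI from 9 libraries, 3 per group by their titles. The authors deposited a single table of TPM values, rounded to 2 decimals, for 17602 genes. Per the labels, the processing notes name HISAT2 2.0.4 and mRatBN7.2; the counting tool and annotation are not given in the sources used here. TPM keeps no read numbers, so depth is unknown and the error is the spread between the 3 libraries of a group, which may be technical in part, since source animals are not named. A rise in abundant transcripts lowers the TPM of all others. Close paralogs (Kdelr2 and Kdelr3, Sec61a1 and Sec61a2) may share reads.

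From the TPM values, log2(TPM + 1) of the 16512 genes above 0 in at least 3 libraries was fitted in limma 3.58.1 (R 4.3.3; lmFit, contrasts.fit, eBayes with trend), with 1 mean per group over all 9 libraries and Benjamini-Hochberg adjustment over all genes in each comparison. Rose, fell and passed mean an adjusted p below 0.05. Fold changes are on the log2(TPM + 1) scale, which understates changes of low genes. On simulated data for pMx versus sham with 16512 genes, 48% of 100 genes shifted by 0.5 and 86% of 100 genes shifted by 1 on the log2 scale were called, with 11 unchanged genes. The shifted genes were drawn from those above a set mean level. They were far fewer than the 2926 genes that rose and 3120 that fell in the data. The adjustment depends on that number, so these shares do not carry over to the data. Ratios were compared by exact permutation tests in SciPy 1.17.1.

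The 40 genes and all lists were chosen with earlier results of these data known. Values for every library were printed for DEGs, for the gene with the largest fold change of each role and for Ern1, Eif2ak3, Atf6, Xbp1, Atf4, Ddit3 and Hspa5; of each pathway list, the changed genes with the 2 largest increases and decreases were named. Ranges of a few other genes, such as Canx and Dnajb9, were added after their values were seen. Creb3l3 and March6 were not matched by symbol and Creb3l4 was not tested. Alternatives were other pseudocounts, filters, scalings, moderation settings, libraries and thresholds, and a muscle covariate added after the data were seen. Protein sequences were not used here.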

Additional observations from a re-analysis of the deposited data

How the results depend on the processing

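Of the 29 genes called in pMx versus sham, 26 were called with the same sign under all 20 alternative fits; Sdf2l1, Edem1 and Ssr3 were lost in some. Of the 32 called in pMx versus intact, 30 were, all but Trib3 and Sel1l. Each of the 8 called in sham versus intact was lost in at least 1 fit. No called gene changed sign. In sham versus intact, 13 genes rose with median-of-ratios or quantile scaling, against 7, and none with the 6 libraries alone (10 at an unadjusted p below 0.05) or at an adjusted p below 0.01; leaving out a library gave 2 to 10. The 1 gene that fell there became 0 with the 6 libraries, with the replicate block or at an adjusted p below 0.01, 3 with the muscle score as covariate, and 0 to 2 on leaving out a library. In pMx versus intact, 1 gene instead of 2 fell at an adjusted p below 0.01 and 1 to 2 on leaving out a library, and 1 gene instead of 0 was a lower DEG with a pseudocount of 0.1 or 0.01 and 0 to 1 on leaving out a library. The causes were not tested. The uncalled sensors Ern1 and Atf6, near 0, changed sign: the log2 fold change of Ern1 in pMx versus sham became 0.0427 with quantile normalization and ranged from -0.0731 to 0.0302 on leaving out a library, and that of Atf6 ranged from -0.0239 to 0.0456.

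Same-numbered libraries did not deviate together in every pair: correlations across genes were 0.03 to 0.48 between pMx and sham, -0.49 to 0.00 between sham and intact and -0.66 to -0.38 between pMx and intact. Not every library correlated best with its own number (pMx replicate 1 did so with sham replicate 2, at 0.31). The labels name no pairs, and the numbers were not taken as pairs. Skeletal muscle markers also differed within groups, such as Acta1 with 753.32, 748.41 and 13.87 TPM in the pMx libraries. Their part in these correlations was not tested, so the correlations cannot show whether same-numbered libraries share an animal. With the replicate number as a block, 29 genes rose and 3 fell in pMx versus sham and 8 rose and 0 fell in sham versus intact. With unknown reads per value, low genes such as Chac1 and Trib3 carry an error that cannot be given beyond the spread of 3 libraries.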

Other observations

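Ratios between related genes of the route did not overlap between the pMx and sham libraries. TPM is scaled for length, so ratios of TPM between genes can be read. Close paralogs may share reads, however, and the part of shared reads in these ratios was not tested. The pairs were chosen after their values were seen, and an exact two-sided permutation test of 3 against 3 libraries cannot go below 0.1, the p that each of the 8 ratios reached in pMx versus sham (also 0.1 after Benjamini-Hochberg adjustment over the 8). The largest shift was that of the ER oxidases: the ratio of Ero1a to Ero1b was 0.741 ± 0.147 in intact, 1.47 ± 0.415 in sham and 7.28 ± 0.957 in pMx (SD, n = 3 each). The ratio of Sec24d to Sec24c was 0.836 ± 0.0857, 1.29 ± 0.0876 and 2.57 ± 0.0987, and that of Sec23a to Sec23b was 1.46 ± 0.106, 1.72 ± 0.0515 and 3.02 ± 0.134 (SD, n = 3 each). The ratio of the channel pores Sec61a1 to Sec61a2 was 3.23 ± 0.433, 5.31 ± 0.258 and 9.40 ± 0.289 (SD, n = 3 each).

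The ratio of Calr to Canx was 2.63 ± 0.0785 in sham and 4.23 ± 0.0634 in pMx. That of Ssr1 to Ssr3, subunits of the same complex, was 0.725 ± 0.0597 and 1.26 ± 0.0420. Those of Kdelr2 and Kdelr3 to Kdelr1 were 0.571 ± 0.0585 and 0.722 ± 0.0253 in sham and 0.812 ± 0.0265 and 0.909 ± 0.0277 in pMx (SD, n = 3 each). Between sham and intact, the ratios of Ssr1 to Ssr3 and of Kdelr2 to Kdelr1 overlapped.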
